A study of Canis lupus familiaris with 6 samples.

Results

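The SLC25 family of mitochondrial carriers was followed in dog MDCK kidney epithelial cells that carried both oncogenic Ras and a truncated β-catenin and were grown alone or among cells without the RasV12 transgene. Members were chosen by name: every non-control probe of the canine expression array whose gene name was SLC25A and a number, UCP1 to UCP3, MTCH1, MTCH2, MPC1 or MPC2. This rule uses no measured value. It found 73 probes for 41 genes, of 43603 probes with 34378 different names on the array. No probe carried the names MPC1, MTCH2, SLC25A5 or SLC25A6. Further SLC25A numbers, among them SLC25A10, SLC25A22 and SLC25A51, also had no probe of that name, so the family was covered only in part. Probes named only by a sequence identifier were left out, even where their description mentioned a carrier.

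The cells examined were MDCK cells with tetracycline-inducible GFP-RasV12 (MDCK-pTR GFP-RasV12) that also expressed mCherry-tagged β-catenin Δ131, and in the single culture they grew by themselves (3 samples). In the mix culture, the same cells were surrounded by MDCK mCherry-β-catenin Δ131 cells, 10 of them for each RasV12 cell (3 samples). In both cultures the cells sat on collagen-coated dishes and received tetracycline for 24 h to switch on GFP-RasV12. Cells were then sorted for GFP, so that the RNA of both groups was meant to come from the RasV12 cells. The purity of the sort is not given in the sources used here. β-catenin Δ131 was stably expressed from an EF1 vector and was present in all cells of both groups. The comparison therefore asked whether neighbours without the RasV12 transgene altered the transcripts of β-catenin Δ131/RasV12 cells. No arm without RasV12 or without β-catenin Δ131 was part of it. Whether the line was 1 clone, and whether the 3 samples of a group were separate cultures, are not given in the sources used here. The p-values thus measure the spread between these samples, which may be technical. In RNA from a sorted population, fewer cells with a transcript and less of it per cell cannot be told apart.

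Values are log2 signals relative to the 75th percentile of each array, so that 0 is the signal of the spot at that percentile. Changes are mix culture minus single culture. The 6 arrays lay on 2 slides. Slide 1 held replicate 1 of each culture, and slide 2 held replicates 2 and 3 of each. The slides were also scanned at different resolutions and extracted with different software releases, and these differences cannot be told apart. Between 61.11% and 65.66% of the spots of an array were well above background. All 5 epithelium markers on the array, CDH1, EPCAM, KRT18, TJP1 and CDH16, were above background on every array. Probes of the leukocyte marker PTPRC and the fibroblast marker DCN were above background on none, whereas 3 of 4 leukocyte, 2 of 4 fibroblast and 3 of 4 endothelium markers passed the detection filter. None of these other-cell markers was called between the cultures. Of the epithelium markers, CDH1 was called lower in the mix culture with the slide block (-0.47 in its brightest probe, limma adjusted p = 0.0442). Without a block it was not called (limma adjusted p = 0.38). This is 20% of the 5 markers, beside 7.28% of all tested genes called with the slide block (3.41% lower).

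Mitochondrial carriers are small membrane proteins, built from repeats of a shared fold, that move metabolites, nucleotides, cofactors and protons across the inner mitochondrial membrane. They connect the pathways of the matrix with those of the cytosol: ADP/ATP exchange and phosphate entry feed oxidative phosphorylation, and citrate, malate and aspartate carriers serve biosynthesis and redox shuttles. Uncoupling proteins belong to the same family. MTCH1 and SLC25A46 are relatives in the outer membrane, SLC25A17 is peroxisomal, and the pyruvate carrier subunit MPC2 is not a family member by sequence but works beside them.

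The 6 probes printed here show what was measured, each a 60-base stretch of a transcript, with positions on CanFam3.1 as the array design gives them. UCP2 is shown because its probe had the lowest fitted change, UCP1 because it was detected on 1 array, and SLC25A15 and SLC25A16 because these genes held the lowest adjusted p of a carrier without and with the slide block, SLC25A16 through another of its probes than the one shown. The pair for SLC25A3 is shown because both probes cover nearly the same bases, and the capitals mark the 50 bases they share.
UCP2: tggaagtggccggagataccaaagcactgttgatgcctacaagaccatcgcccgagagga
UCP1: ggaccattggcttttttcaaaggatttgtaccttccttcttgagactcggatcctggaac
SLC25A16: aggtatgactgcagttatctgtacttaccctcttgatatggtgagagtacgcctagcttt
SLC25A15: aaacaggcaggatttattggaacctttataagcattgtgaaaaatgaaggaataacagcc
SLC25A3 A_11_P154598: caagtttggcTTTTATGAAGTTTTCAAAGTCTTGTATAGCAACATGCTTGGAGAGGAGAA
SLC25A3 A_11_P212648: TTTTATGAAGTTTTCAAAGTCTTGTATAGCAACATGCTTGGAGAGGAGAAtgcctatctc
The UCP2 probe lay at chr21:24309751-24309810 on the plus strand as 1 unbroken block. The other probes shown covered more genome than their 60 bases and so crossed a gap in the genome between parts of the transcript. The UCP1 probe ran over 1850 bases (chr19:2287975-2289824, plus strand), this SLC25A16 probe over 16889 bases (chr4:19707744-19724632, minus strand) and the SLC25A15 probe over 1377 bases (chr25:472891-474267, minus strand). Both SLC25A3 probes ran over 417 bases, from chr15:37996596-37997012 and chr15:37996606-37997022 on the plus strand.

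Most of the family was expressed. 64 of the 73 probes (87.7%) were well above background on all 6 arrays, against 58.7% of all probes on the array. A further 4 probes were above background on 1 to 5 arrays and 5 on none. The filter for testing, above background on all 3 arrays of at least 1 culture, was passed by 65 probes of 35 genes. The 6 genes without a tested probe were UCP1, the uncoupling protein of brown fat, UCP3, the uncoupling protein of muscle, SLC25A18, a glutamate carrier, SLC25A31, a testis ADP/ATP carrier, SLC25A42, a coenzyme A carrier, and the liver carrier SLC25A47. UCP1 was above background on the array of single culture replicate 1 only, and SLC25A31 only on the 2 arrays of slide 1. SLC25A53, an orphan carrier on the X chromosome, was above background on all 3 single culture arrays and on 2 of 3 mix culture arrays. No carrier was therefore detected throughout in one culture and undetected throughout in the other.

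No carrier passed the test between the cultures. With limma and Benjamini-Hochberg adjustment over all 26623 tested probes, 232 probes were called (0.871%), 214 higher and 18 lower in the mix culture (0.804% and 0.0676%), and 0 of the 65 carrier probes were among them. At an unadjusted p under 0.05 there were 2324 probes (8.73%) and again 0 carriers. The lowest adjusted p of a carrier was 0.745, for SLC25A15. With the slide as a block, 1923 probes were called (7.22%, 3.99% higher and 3.23% lower) and 0 carriers, the lowest adjusted p being 0.0989 for SLC25A16. With the replicate number as a block there were 1408 calls (5.29%), again without a carrier. By the per-probe test that the study's methods name, after Benjamini-Hochberg adjustment, 8 probes and no carrier were called.

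The fitted changes of the carriers were small. They ran from -0.38 to 0.31 on the log2 scale, with quartiles at -0.15, -0.05 and 0.01, and the median size was 0.09 against 0.17 over all tested probes. All 65 probes stayed under 0.5 in either direction, as 90.6% of all tested probes did. Standard errors ran from 0.14 to 0.50 with a median of 0.20 (n = 3 and 3), and 0.12 with the slide block. The 95% interval lay within a 2-fold change either way for 57 of the 65 probes (87.7%, against 78.3% of all tested probes), and with the slide block for all 65 (93.9% of all). Without the block, the 8 probes whose interval reached beyond 2-fold included those of UCP2, SLC25A39, SLC25A1, SLC25A27 and SLC25A35, 1 of SLC25A26 and 1 of MPC2.

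**Figure D1:**
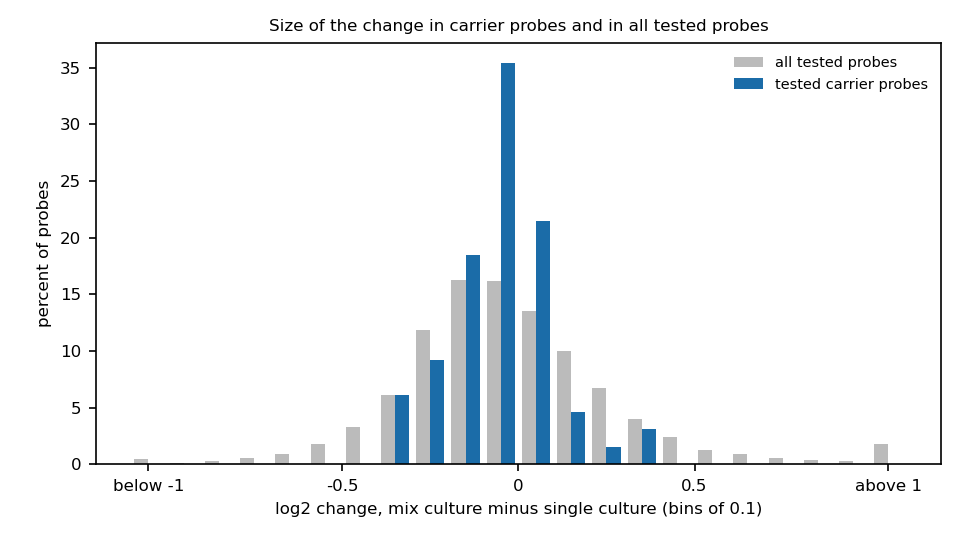
Percent of probes (vertical axis) by log2 change, mix culture minus single culture (horizontal axis, bins of 0.1, with all values beyond 1 in the end bins), for all tested probes in grey and the carrier probes in blue. The carriers fill only the bins between -0.4 and 0.4, and 35.4% of them lie between -0.1 and 0, against 16.2% of all tested probes.

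More carriers lay below 0 than above it. The fitted change was below 0 for 45 of 65 probes (69.2%), against 58% of all tested probes. The median was -0.05 for the carrier probes and also -0.05 over all tested probes. By gene, taking the brightest probe of each, 25 of 35 lay below 0 and 10 at or above it, with a median of -0.07. Of all 19646 genes tested, 11728 lay below 0, with a median of -0.06. On slide 1 the median of the 35 genes was -0.15 and on slide 2 -0.06. The sign was the same on both slides for 32 of 65 probes (49.2%), against 70.7% of all tested probes. The cultures did not overlap in 2 probes (3.08%), against 16.5% of all tested probes. Both were lower in the mix culture, as were 8.68% of all tested probes, and 0 carriers were higher without overlap, against 7.83% of all.

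**Figure D2:**
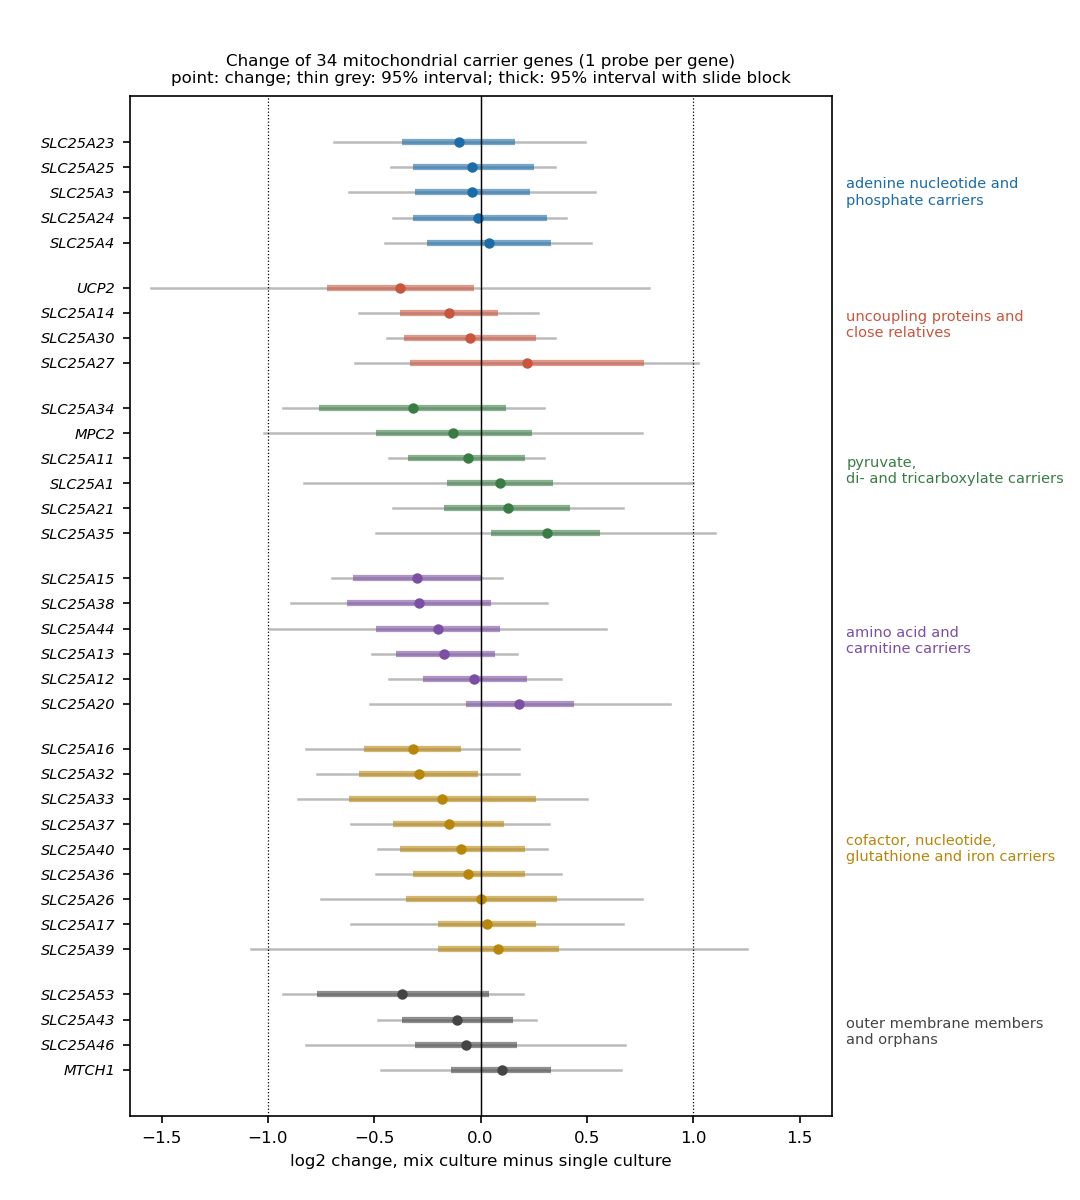
Log2 change (horizontal axis) of the brightest probe of 34 of the 35 tested carrier genes, grouped by role, with the 95% interval of the limma fit without a block (thin grey) and with the slide block (thick). Points run from -0.38 for UCP2 to 0.31 for SLC25A35, and all thick intervals lie between the dotted lines that mark a 2-fold change.

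ADP/ATP, phosphate and ATP-Mg/phosphate carriers had fitted changes near 0. The median of 5 genes was -0.04 and the range -0.10 to 0.04. SLC25A3, which brings phosphate (and copper) into the matrix, read 6.36, 5.64 and 5.79 in single culture replicates 1 to 3 with its brightest probe, and 6.18, 5.64 and 5.85 in the mix culture. Replicate 1 was highest in both cultures and the groups overlapped. The difference was -0.04 (SE 0.25, limma adjusted p = 0.986), and its sign turned with quantile normalisation, to 0.09. The 6 SLC25A3 probes lay between -0.10 and 0.01, and the overlapping pair shown above at 0.01 and -0.01. The ADP/ATP carrier SLC25A4 lay between -0.03 and 0.04 in its 4 probes, the brightest of which the array design places on 10 bases only. Close paralogs of SLC25A4 may share signal with its probes, and an SLC25A3-like copy with those of SLC25A3. Such sharing was not tested. SLC25A23, SLC25A24 and SLC25A25, which exchange ATP-Mg for phosphate, lay at -0.10, -0.01 and -0.04.

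Among the uncoupling proteins, UCP2, which carries C4 metabolites and is widely expressed, had the lowest fitted change of the family. It read 0.16, 1.18 and 1.08 in the single culture and -0.66, 0.95 and 1.00 in the mix culture. Replicate 1, on slide 1, was lowest in both cultures, and the groups overlapped across the slides. On each slide the mix culture values lay below those of the single culture. The difference was -0.38 (SE 0.50, 95% interval -1.55 to 0.79, limma adjusted p = 0.94), -0.83 on slide 1 and -0.15 on slide 2. With the slide block the SE was 0.15, the 95% interval -0.72 to -0.03 and the limma adjusted p 0.165. That interval is not adjusted for the number of probes. Without mix culture replicate 1 the difference was 0.17. SLC25A27 (UCP4) was dim, with fitted changes of 0.98 on slide 1 and -0.16 on slide 2 (together 0.22, SE 0.34). SLC25A14 (UCP5) lay at -0.15 and SLC25A30 at -0.05.

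Pyruvate and carboxylate carriers lay on both sides of 0, with 3 of 6 genes below it, 3 above it and a median of 0.01. SLC25A11, the oxoglutarate/malate carrier of the malate-aspartate shuttle, read 5.06, 4.88 and 4.97 in the single culture and 4.80, 4.84 and 5.07 in the mix culture with its brightest probe. These groups overlapped, with a difference of -0.06 (SE 0.15, limma adjusted p = 0.973) that became 0.03 with quantile normalisation. Its other probes lay between -0.12 and -0.03. The citrate carrier SLC25A1, which exports citrate for lipid synthesis, lay at 0.09, and MPC2 at -0.13 and -0.14 in its 2 probes. SLC25A35, a carrier with no settled substrate, had the highest fitted change of the family and was picked for that after its values were seen. It read -3.80, -2.93 and -3.09 in the single culture and -3.57, -2.56 and -2.77 in the mix culture, and replicate 1 was again lowest in both. The difference was 0.31 (SE 0.34, limma adjusted p = 0.918, 0.142 with the slide block), 0.24 on slide 1 and 0.34 on slide 2. It became 0.04 without single culture replicate 1, 0.10 without mix culture replicate 2, 0.61 without mix culture replicate 1 and 0.01 after normexp background correction.

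Amino acid and carnitine carriers had a median of -0.18 over 6 genes, of which 5 lay below 0 and none was called. The median was -0.10 without single culture replicate 1 and -0.08 on slide 2 alone. SLC25A38, which imports glycine for heme synthesis, read 3.29, 2.35 and 2.65 in the single culture and 2.62, 2.42 and 2.39 in the mix culture with its brightest probe. The high value of single culture replicate 1 stood apart, and the difference was -0.29 (SE 0.25, limma adjusted p = 0.872), -0.68 on slide 1 and -0.10 on slide 2. Without that array it was -0.03. The other SLC25A38 probes lay at -0.23 and 0.01. SLC25A15, the ornithine carrier of the urea cycle, was chosen after its values were seen, for the lowest adjusted p. It read -2.29, -2.66 and -2.41 in the single culture and -2.75, -2.89 and -2.61 in the mix culture, and the groups overlapped. The difference was -0.30 (SE 0.17, limma adjusted p = 0.745). SLC25A13, an aspartate-glutamate exchanger, was 1 of the 2 probes without overlap, from 0.70 to 0.82 in the single culture and 0.47 to 0.64 in the mix culture, with a difference of -0.17 (SE 0.14, limma adjusted p = 0.865). Its paralog SLC25A12 gave different values with its 2 probes, -0.03 and, with the dimmer of them, 0.30 (SE 0.19), the latter becoming 0.01 after normexp background correction. The carnitine-acylcarnitine carrier SLC25A20, which serves fatty acid oxidation, lay at 0.18.

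Carriers of cofactors, nucleotides, glutathione and iron had a median of -0.08 over 10 genes, 7 of them below 0 and 3 above it. SLC25A16, linked to coenzyme A supply, read 2.65, 2.20 and 2.28 in the single culture and 2.40, 1.89 and 1.90 in the mix culture with its brightest probe. The array design places this probe on 6 bases only (chr4:19695091-19695096), so its position on the gene is incomplete. The differences were -0.25 on slide 1 and -0.35 on slide 2, although the groups overlapped across slides. The difference was -0.32 (SE 0.21, limma adjusted p = 0.80), with an SE of 0.10 and an adjusted p of 0.0989 under the slide block. The other SLC25A16 probes lay at -0.26 and, for the probe printed above, -0.18. The folate carrier SLC25A32 lay at -0.29. The other probe without overlap belonged to SLC25A40, a glutathione carrier, from -1.35 to -1.10 in the single culture and -1.61 to -1.41 in the mix culture (difference -0.23, SE 0.16, limma adjusted p = 0.808), while its other probes lay at -0.02 and -0.09. The related glutathione carrier SLC25A39 lay at 0.08, the iron carrier SLC25A37 at -0.15, and the 5 probes of SLC25A17 between -0.05 and 0.03.

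In the last group, MTCH1, an outer membrane protein insertase, read 2.56, 3.21 and 3.11 in the single culture and 2.72, 3.25 and 3.20 in the mix culture with its brightest probe. Replicate 1 was lowest in both cultures, and the difference was 0.10 (SE 0.24, limma adjusted p = 0.973). Its other probe lay at -0.05. SLC25A46, which acts in mitochondrial shape, lay between -0.07 and 0.09 in its 3 probes. SLC25A53, named after its values were seen, read -4.06, -4.23 and -4.51 in the single culture and -4.37, -5.09 and -4.44 in the mix culture. The lowest value, of mix culture replicate 2, was not above background, and the difference was -0.37 (SE 0.24, limma adjusted p = 0.792). It became -0.14 without that array and -0.09 after normexp background correction.

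**Figure D3:**
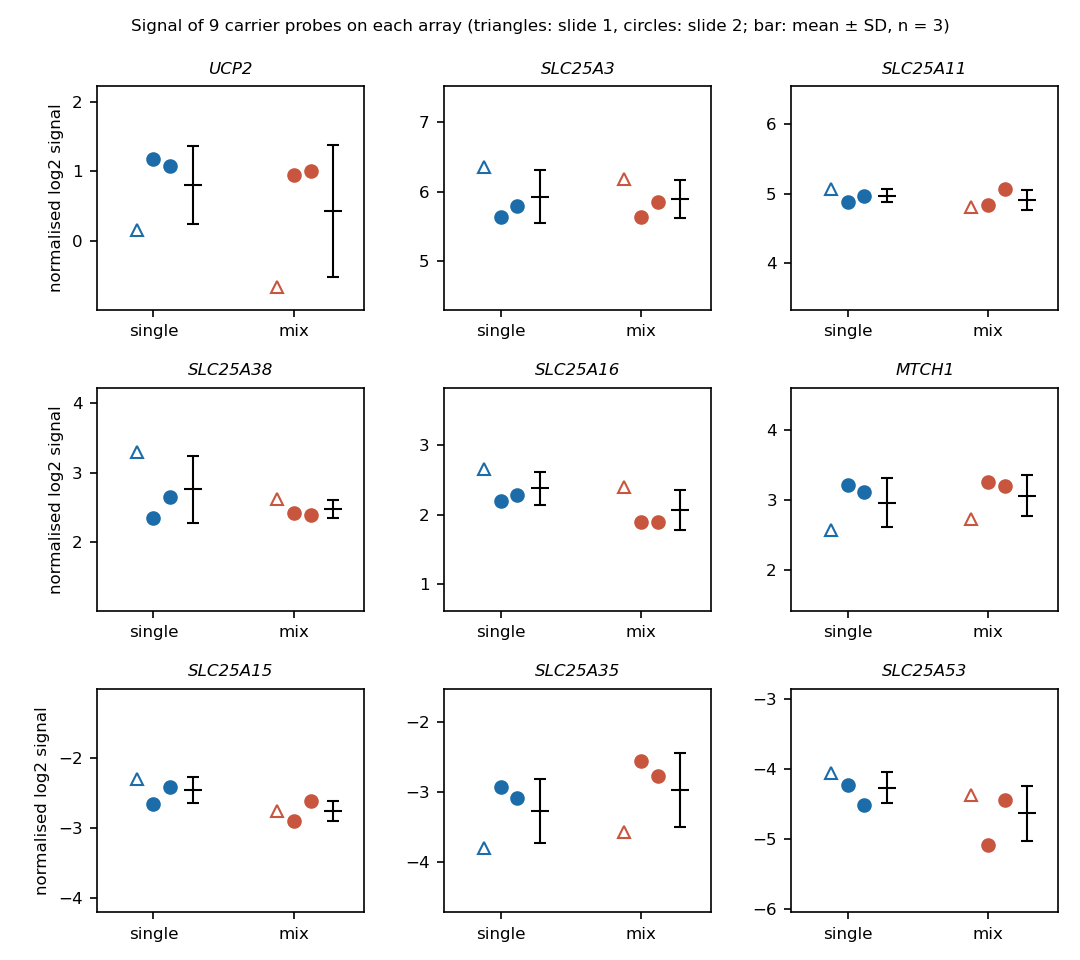
Normalised log2 signal (vertical axes of equal length, each centred on its own probe) of 9 carrier probes in the single culture (blue) and the mix culture (red) on each array, with the mean and SD of 3 arrays beside them. Triangles are arrays of slide 1 and circles arrays of slide 2. For UCP2, SLC25A3, SLC25A16, SLC25A38, SLC25A35 and MTCH1 the triangles stand apart from the circles, on the same side in both cultures.

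Of the 35 genes, 15 had more than 1 tested probe, 45 probes in all. In 7 genes all probes had the same sign, 6 lower and 1 higher, and in 8 the signs were mixed. The spread between the probes of a gene ran from 0.01 to 0.33, with a median of 0.10, about the median size of a carrier's change. The largest spread was that of SLC25A12. SLC25A11, SLC25A16, SLC25A33, SLC25A40, SLC25A43 and MPC2 were the genes with every probe below 0.

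Carrier signals differed between the slides more than between the cultures. The slide term of the limma fit was called for 33 of 65 probes (50.8%), 17 higher and 16 lower on slide 2, beside 47.2% of all tested probes. The slide difference was larger than the culture change in 58 probes (89.2%), against 69.5% of all tested probes. The glutathione carrier SLC25A39 had the largest of the family, reading 1.14 and 1.15 on slide 1, and 2.54, 2.27, 2.41 and 2.64 on slide 2 (difference 1.32, adjusted p = 0.000273). UCP2 was 1.30 higher on slide 2 and SLC25A1 1.02 higher, while MPC2 lay at -0.93 in its brightest probe and SLC25A17 at -0.89 in 1 of its probes, lower on slide 2. Each slide held both cultures but different replicates, so that slide and replicate cannot be told apart.

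**Figure D4:**
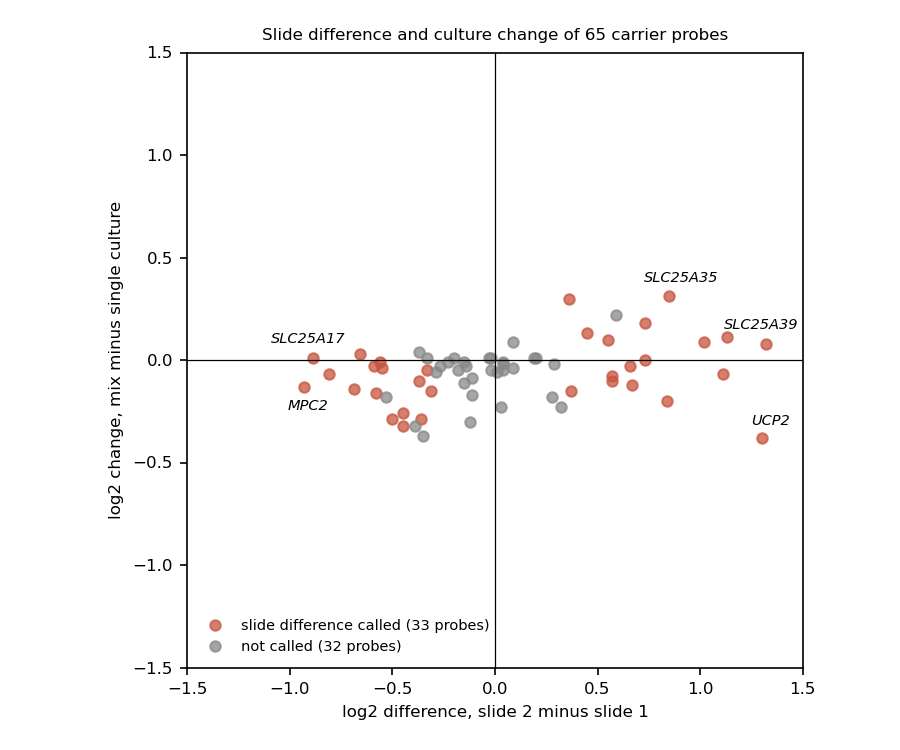
Log2 difference between the slides (horizontal axis) and log2 change between the cultures (vertical axis, same scale) of the 65 tested carrier probes, in red where the slide difference was called. The points spread to 1.32 along the slide axis and stay between -0.38 and 0.31 along the culture axis.

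The culture change itself was not called as different between the slides for any carrier. The interaction of slide and culture was called for 13 of all tested probes (0.0488%) and 0 carriers, and passed an unadjusted p of 0.05 in 5 carrier probes (7.69%), against 9.14% of all tested probes. These were the probes of SLC25A27, UCP2 and SLC25A34 and both probes of SLC25A26, the S-adenosylmethionine carrier. With the slide block, 6 carrier probes (9.23%) had an unadjusted p under 0.05, against 25.9% of all tested probes. They were 2 probes of SLC25A16, and 1 each of SLC25A12, SLC25A32, SLC25A35 and UCP2. None of the 6 passed the adjustment.

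Genes that act around the carriers were read from 3 lists. Of 15 genes for carrier import and outer membrane channels, such as TOMM40, TIMM22 and the VDAC channels, none was called and the median was -0.01. Of 15 tested genes for other inner membrane transporters, such as the calcium uniporter MCU and the sideroflexins, none was called, the median being -0.17. With the slide block 1 was called lower, the uniporter regulator MCUR1, which is 6.67% of the list beside 7.28% of all tested genes called in that fit (3.41% lower). It averaged 4.19 ± 0.30 in the single culture and 3.57 ± 0.07 in the mix culture (SD, n = 3 each), without overlap. The difference was -0.62 (SE 0.19, limma adjusted p = 0.337, 0.0234 with the slide block).

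Of 11 genes for mitochondrial biogenesis and DNA maintenance, with a median of -0.11, 1 was called, beside 0.86% of all tested genes. The list was chosen with earlier results of these data known, so this count does not test the list. PPARGC1A, the coactivator PGC-1α that drives transcription of mitochondrial genes, had signals of 0.911, 0.911 and 1.08 in the single culture, none above background. Its signals in the mix culture were 14.6, 17 and 16.4, all above background. Each single culture array was set at the lowest signal it held that was well above background. PPARGC1A was then at least 3.6-fold higher in the mix culture. Some spots not above background exceed such a lowest signal, so this is not a strict floor. PPARGC1A passed the detection filter through the mix culture alone. The limma adjusted p was 0.000978, and 5.69e-06 with the slide block. Both come from fits on single culture readings that were not above background, and do not test the bound. PPARGC1A was not called after normexp background correction or by the per-probe test of the methods. A filter that required all 6 arrays above background left it out. Its relative PPARGC1B lay at -0.50 (SE 0.17, limma adjusted p = 0.423). The mitochondrial transcription factor TFAM lay at 0.13 (SE 0.19, limma adjusted p = 0.949). In the same fit, 0 of the 35 carrier genes was called in either direction.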

How the data were processed

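Cy3-labelled RNA of 6 samples was hybridised to 1-colour Agilent canine arrays. Per the file headers, the authors extracted spot intensity (gProcessedSignal, background-subtracted) with Feature Extraction. The deposited series table of log2 values, centred within each slide with column medians of 0.00, served as an alternative; its columns for mix culture replicates 2 and 3 each matched the scanner file of the other (r = 0.993 and 0.999), so that these 2 arrays of 1 group and slide may be interchanged.

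Control and outlier-flagged spots were dropped, no spot being saturated. Signals were scaled to the 75th percentile over non-control spots, log2-transformed and averaged per probe. Probes well above background on all 3 arrays of a group were tested with limma 3.58.1 (R 4.3.3, lmFit and eBayes, two-sided, Benjamini-Hochberg, adjusted p under 0.05), without a block. The code was tested on simulated data. Same-numbered samples deviated together (r = 0.801, 0.53 and 0.572), the first of these being the pair on slide 1. On slide 2 the crossed pairs gave 0.632 and 0.61. As mix culture replicates 2 and 3 may be interchanged, the values do not settle whether samples pair by number within that slide. Replicate number was used as a block in an alternative fit, although such a pairing was not shown. Alternatives covered normalisation, background correction, detection filter, slide, probe choice and each array left out. Array number limits precision.

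Full values were given for carriers called, changed or bounded at 2-fold or more, and for the brightest probe of each role group; others named were chosen after their values were seen. The values of 1 member gene are not reported here, though it stays in the counts and medians. Members and lists were chosen with earlier results of these data known. Of 41 member symbols, 40 matched symbols of the RefSeq dog gene table for UU_Cfam_GSD_1.0.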

Additional observations from a re-analysis of the deposited data

How the results depend on the processing

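No carrier probe was called under any alternative with a test, and the lowest adjusted p of a carrier ranged from 0.0989 (slide block) to 1 (without mix culture replicate 2). The number of all probes called was 101 after normexp correction, 142 for probes above background on all 6 arrays, 1923 with the slide block, 985 on slide 2 alone, 1408 with the replicate block, 1826 in the deposited table with the slide block and 8 by the methods' t-test. With each array left out in turn it ran from 86 (without mix culture replicate 3) to 244, with 92 without mix culture replicate 2 and 94 without single culture replicate 3. Slide 1 alone, with 1 array per culture, gave no test. The cause of these shifts was not tested.

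Of the other inner membrane transporters, 1 was called (MCUR1) with the slide block, 1 with the replicate block and 1 in the deposited table. For mitochondrial biogenesis 0 were called after normexp, 0 by the t-test, and 0 when all 6 arrays had to be above background, which removes PPARGC1A. Some medians moved by more than their SD over the 3 pairs of same-numbered samples. For biogenesis this SD was small enough that shifts of 0.01 or less count. On slide 1 alone they were -0.15 for the family, -0.32 for amino acid carriers, -0.12 for import and channels and -0.12 for biogenesis, and on slide 2 alone -0.05 for import and -0.14 for biogenesis. After normexp they were -0.06 for cofactor carriers and -0.10 for biogenesis. With no filter the uncoupling proteins had -0.26. Averaging the probes of a gene gave -0.07 for import and -0.10 for biogenesis, and biogenesis had -0.15 with all 6 arrays above background and -0.11, equal to its main value at this rounding, in the deposited table. With arrays left out the medians ran from -0.11 to -0.06 for the family, -0.21 to -0.10 for amino acid carriers, -0.07 to 0.06 for adenine nucleotide and phosphate carriers, -0.16 to 0.04 for uncoupling proteins, -0.18 to -0.08 for cofactor carriers, -0.24 to 0.00 for outer membrane members, -0.15 to 0.06 for import, -0.22 to -0.09 for inner membrane transporters and -0.25 to -0.04 for biogenesis.

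The sign turned for SLC25A3, to 0.09 with quantile normalisation, 0.03 on slide 2 alone and 0.09 in the deposited table, and to 0.18 with single culture replicate 1 left out and 0.08 without mix culture replicate 2 (range -0.19 to 0.18). For SLC25A11 it turned to 0.03 with quantile normalisation, 0.03 on slide 2 alone and 0.03 in the deposited table. UCP2 turned to 0.17 without mix culture replicate 1 (range -0.70 to 0.17), and MTCH1 to -0.11 without single culture replicate 1 (range -0.11 to 0.26). The sign held but the size varied with arrays left out for SLC25A38 (-0.49 to -0.03), SLC25A16 (-0.49 to -0.18), SLC25A53 (-0.50 to -0.14), SLC25A35 (0.04 to 0.61), SLC25A15 (-0.40 to -0.22) and the dimmer SLC25A12 probe (0.15 to 0.39). After normexp, SLC25A35 was at 0.01, SLC25A12 at 0.01, SLC25A53 at -0.09 and SLC25A15 at -0.18.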
